A study of Mus musculus with 81 samples.

Results

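WT bone marrow-derived macrophages (BMDMs) cultured with a control antibody were compared with WT BMDMs cultured without antibody. The comparison holds 6 of the 81 RNA-seq libraries of the series, 3 with control antibody and 3 without, which were taken by their labels (genotype WT, antibody arm). By the study's methods, WT mice were young adults of C57BL/6 background that carried the floxed alleles H3f3a fl/fl and H3f3b fl/fl without LysM-cre, so that both H3.3 genes were intact. Bone marrow was grown in medium with L929 supernatant, a source of macrophage colony-stimulating factor, and the control antibody, a mouse monoclonal IgG1 κ isotype control, was given from the start of the culture and renewed at short intervals up to lysis. The 3 libraries of an arm are labelled as biological replicates. The labels give no batch, and whether the cells without antibody were handled or had medium changed at the same intervals is not stated in the sources used here, so that the antibody, the repeated handling and any unlabelled batch cannot be told apart.

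An isotype control carries the constant region of an antibody but is not directed against a target in the culture, and it stands in a blocking experiment for whatever the presence of immunoglobulin does. Macrophages bind the constant region of IgG through Fc gamma receptors. Activating receptors signal through the common gamma chain and the kinase Syk, the receptor Fcgr2b is inhibitory, and the neonatal receptor Fcgrt recycles IgG inside the cell. In culture with colony-stimulating factor, bone marrow progenitors divide, leave the cell cycle and become adherent macrophages rich in lysosomal enzymes, scavenger receptors and lectins.

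RNA-seq counts fragments that fall on each gene. Values are CPM, the counts on a gene scaled to a common library size (TMM), and are given in the order of replicates 1, 2 and 3. Summed levels of cell type markers, and the counts of markers under 1 CPM, use CPM without TMM scaling. Counts on genes were 18680746 to 24552967 per library without antibody and 10955509 to 17913002 with control antibody. All 15 macrophage markers were at or above 1 CPM in at least 1 of the 6 libraries. Their summed level was 12050.0 to 22520.0 CPM without antibody and 33160.0 to 33640.0 CPM with it. Lyz2, whose values are given below, made up much of this sum and of its rise. The median log2 fold change of the 15 markers was 0.11, and 10 were not called. Of the others, 4 were called higher, Lyz2 and Ctss among them, and 1 lower, Mrc1. Adgre1, which encodes F4/80, had 808, 1071 and 771 CPM without antibody and 835, 884 and 833 CPM with control antibody. The growth factor receptor Csf1r had 1657, 1151 and 1171 CPM without antibody and 1221, 1085 and 1027 CPM with control antibody. The ranges of Adgre1 overlapped between the arms, and so did those of Csf1r. H3f3a had 33.6, 55.4 and 37.1 CPM without antibody and 35.7, 36.2 and 37.2 CPM with control antibody, and H3f3b had 335, 468 and 325 CPM without antibody and 379.9, 399.6 and 344 CPM with control antibody, so that both targeted genes were expressed in both arms. Of 16 neutrophil markers, 13 were under 1 CPM in all 6 libraries, as were 12 of 13 T and NK cell markers (6 of them, among them Cd3e, at 0) and 10 of 13 B cell markers. One neutrophil marker moved, S100a8, which encodes a calcium-binding protein of neutrophils and monocytes, with 0.413, 0.0941 and 0.152 CPM without antibody and 2.38, 1.53 and 2.75 CPM with control antibody (log2 fold change 3.3, SE 0.65, adjusted p = 0.00983). Stromal and fibroblast markers summed to 17.4 to 146 CPM without antibody and 25.2 to 351 CPM with it. Col1a1, a collagen of fibroblasts, had 22.3, 6.54 and 54.4 CPM without antibody and 22.8, 6.23 and 113 CPM with control antibody. Replicate 3 was highest and replicate 2 lowest for this gene in both arms.

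Libraries of the arm with control antibody lay close together, whereas those without antibody were spread. On the first principal component of all 18 libraries of the antibody experiment, which held 44.6% of the variance, the libraries without antibody lay at -10.2, -85.2 and -41.6 and those with control antibody at 22.3, 23.6 and 32.6. The second component, with 13.8% of the variance, separated both arms. Chi-square per degree of freedom between replicates, a measure of how far their counts differ beyond sampling noise, was 3.99 to 6.62 with control antibody and 31.9 to 117 without. Replicates 2 and 3 without antibody were high for genes of the clock and of stress, and Dbp, a clock output gene, had 37.9, 129 and 92.2 CPM without antibody and 20.4, 27.1 and 22.1 CPM with control antibody. These libraries also differed in Actb, the cytoskeletal actin, with 6914, 2095 and 3167 CPM without antibody and 6473, 5742 and 5734 CPM with control antibody. Mitochondrially encoded genes took 1.17 to 1.3% of counts without antibody and 0.333 to 0.674% with it, and small structural RNAs 1.08 to 1.66% and 0.54 to 0.794%. The part of these differences in the results was not tested.

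**Figure D1:**
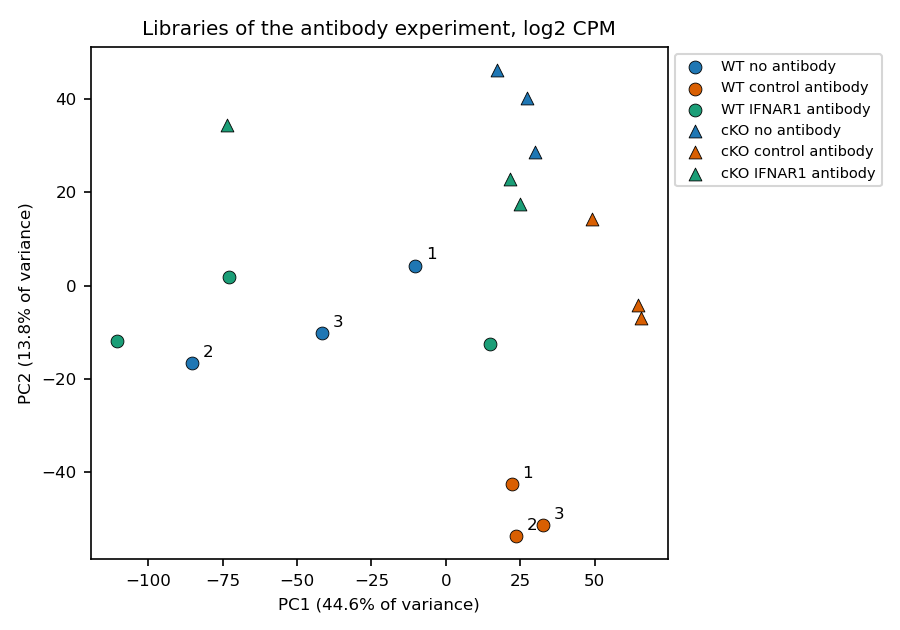
First 2 principal components of log2 CPM for the 18 libraries of the antibody experiment, with circles for WT and triangles for cKO and numbers for the replicates of both WT arms compared. The 3 WT libraries with control antibody sit together at PC1 of 22.3, 23.6 and 32.6, while those without antibody lie at -10.2, -85.2 and -41.6.

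Mitotic genes, endoplasmic reticulum chaperones and 10 of 49 interferon-stimulated genes were lower with control antibody, and lysosomal cathepsins, lysozyme and several lipid and scavenger genes were higher. Of 17191 genes tested with edgeR's quasi-likelihood test, 8.9% were called at an adjusted p under 0.05. They comprised 562 higher (3.27%) and 968 lower (5.63%), and the median log2 fold change over all genes was -0.007. The lower genes moved further: their median log2 fold change was -1.27, against 0.79 for the higher ones. Both arms did not overlap for 21.6% of all genes with the control antibody above and for 20.6% with it below. This fit leaves out the replicate number, and with that number as a block the calls were 712 higher and 1158 lower. The number of calls depended on single libraries. With 1 of the 6 libraries left out in turn, 38 to 1101 genes were called higher and 68 to 1324 lower, and 34 higher and 66 lower genes were called in all 6 of these fits. Below, "called without any one library" marks these genes. Of the called genes named here and in the closing section, 34 were called in all 6 of these fits, 28 in 4 or 5 of them and 56 in 3 or fewer.

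**Figure D2:**
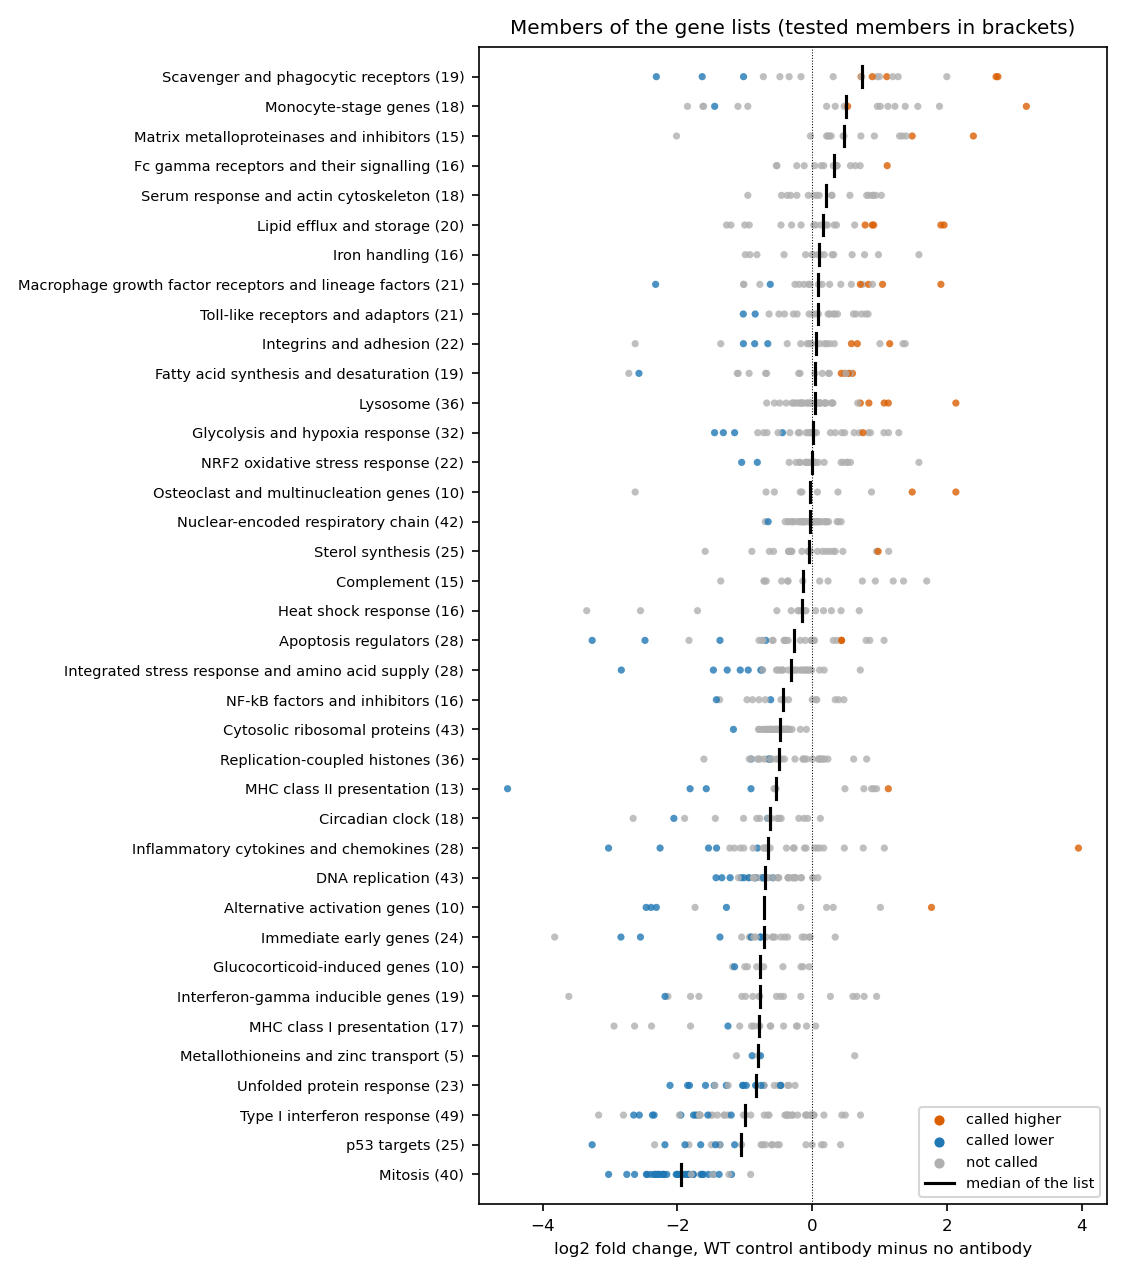
Log2 fold change (control antibody minus no antibody) of each tested member of 38 gene lists, ordered by the list's median (black bar), with called genes in colour. Mitosis lies farthest to the left, with a median of -1.95 and 35 of 40 members called lower.

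Genes of mitosis were lower together. All 40 listed genes were tested, 35 were called lower and none higher, and the median log2 fold change was -1.95. All 40 had both arms apart, with the control antibody below, against 20.6% of all genes tested. In bulk libraries, fewer dividing cells and less mitotic RNA per cell cannot be told apart. Mki67, the proliferation marker Ki-67, had 559.9, 536 and 532 CPM without antibody and 179, 73 and 83.7 CPM with control antibody (log2 fold change -2.28, SE 0.44, adjusted p = 0.00918). The kinesin of the spindle Kif11 had 77.6, 70.6 and 67.7 CPM without antibody and 21.6, 8.38 and 11 CPM with control antibody (log2 fold change -2.4, SE 0.50, adjusted p = 0.0132). Bub1, a kinase of the spindle checkpoint, had 34.1, 36.6 and 31.5 CPM without antibody and 13.6, 6.12 and 7.23 CPM with control antibody (log2 fold change -1.92, SE 0.38, adjusted p = 0.0105). For these 3 genes the libraries without antibody lay close together, and of the libraries with control antibody replicate 1 was the highest. Kif4, a chromokinesin, showed the same order among replicates, with 30, 31.9 and 30.4 CPM without antibody and 10.2, 3.96 and 4.39 CPM with control antibody (log2 fold change -2.31, SE 0.49, adjusted p = 0.0142). Cdk1, the kinase that drives entry into mitosis, was chosen after its values were seen and had 46.2, 31.2 and 32.2 CPM without antibody and 20.7, 8.38 and 10.6 CPM with control antibody (log2 fold change -1.46, SE 0.41, adjusted p = 0.0398). Ube2c, which tags mitotic cyclins for destruction, had 34, 66 and 42.8 CPM without antibody and 10.2, 3.23 and 4.21 CPM with control antibody (log2 fold change -3.02, SE 0.67, adjusted p = 0.0164). When a library without antibody or control antibody replicate 1 was left out, 14 to 35 members were still called. Without control antibody replicate 2, or without replicate 3, 0 of 40 passed, and the medians were -1.73 and -1.79. Against no antibody replicate 1 alone the median was -2.02.

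The upstream sequence of mitotic genes often holds the cell cycle homology region (CHR), a short element to which complexes that repress these genes in resting cells bind. The letters TTTGAA, searched on both strands of the 250 bases before the start, were found in 10 of the 32 mitotic genes that had an entry in the RefSeq table (build GRCm38.p6) and in 13.2% of the 10826 tested genes with an entry. CCAAT was found in 24 of 32 and in 39.8% of all. TTTGAA was also found in 9 of 36 type I interferon response genes, 5 of 27 lysosomal genes and 1 of 20 unfolded protein response genes, and CCAAT in 17 of those 20. Stretches of 120 bases are shown for 3 members with both arms far apart, 5′ to 3′ on the strand of the gene, with TTTGAA or its reverse complement in capitals. They lie at chr7:135716396-135716515 (Mki67, minus strand), chr10:69352913-69353032 (Cdk1, minus strand) and chr19:37376262-37376381 (Kif11, plus strand), upstream of the first exon.
Mki67: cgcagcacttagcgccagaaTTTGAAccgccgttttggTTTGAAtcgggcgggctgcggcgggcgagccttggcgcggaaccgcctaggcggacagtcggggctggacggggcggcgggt
Cdk1: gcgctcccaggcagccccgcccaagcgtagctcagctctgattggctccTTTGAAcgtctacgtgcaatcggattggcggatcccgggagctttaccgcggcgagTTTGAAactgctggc
Kif11: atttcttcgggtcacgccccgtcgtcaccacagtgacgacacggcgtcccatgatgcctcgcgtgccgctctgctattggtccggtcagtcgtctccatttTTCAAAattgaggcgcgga

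DNA replication genes were lower by less. Of 43 members, all tested, 11 were called lower and none higher, with a median of -0.70. The control antibody lay below without overlap for 27 members, against 20.6% of all genes tested. With the replicate number as a block, 18 were called. Pola1, the catalytic subunit of the polymerase that primes synthesis, had 49.9, 34.5 and 36.6 CPM without antibody and 24.9, 18.3 and 20 CPM with control antibody (log2 fold change -0.94, SE 0.20, adjusted p = 0.013). Pole, the leading-strand polymerase, had 40.5, 29.5 and 31.6 CPM without antibody and 19.9, 7.87 and 10.1 CPM with control antibody (log2 fold change -1.43, SE 0.34, adjusted p = 0.021). The replicative helicase subunit Cdc45 had 24.2, 19.8 and 22.9 CPM without antibody and 15.1, 7.99 and 9.06 CPM with control antibody (log2 fold change -1.06, SE 0.24, adjusted p = 0.0168). For each of these genes every library with control antibody lay below every library without, and control antibody replicate 1 was nearest to the other arm. Mcm10, which acts with Cdc45 at the origin, changed by -1.34 on the log2 scale. Without control antibody replicate 2 or 3, 0 members were called at medians of -0.58 and -0.58. Of 36 replication-coupled histone genes tested (38 listed), 2 were called lower, or 5.56%, near the 5.63% of all genes tested. The list's median was -0.49, and 0.14 without no antibody replicate 1. The called genes were the linker histone gene Hist1h1e (log2 fold change -0.90, SE 0.22, adjusted p = 0.0248) and Hist1h4c (log2 fold change -0.64, SE 0.17, adjusted p = 0.0307), which encodes H4. Near-identical copies of histone genes can share reads, so single histone values are uncertain. Myc, a driver of growth and division, had 60.1, 49.7 and 37.7 CPM without antibody and 35.4, 28.4 and 22.9 CPM with control antibody (log2 fold change -0.77, SE 0.18, adjusted p = 0.0202).

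Chaperones and foldases of the endoplasmic reticulum (ER) fell. All 23 genes of the unfolded protein response were tested, 14 were called lower and none higher, and the median was -0.84. The libraries without antibody were uneven for these genes, with replicate 2 mostly the highest. Manf, a secreted ER stress factor, had 55.2, 117 and 101 CPM without antibody and 27.5, 24.1 and 24.3 CPM with control antibody (log2 fold change -1.85, SE 0.32, adjusted p = 0.00603) and was called without any one library. Hspa5, the main ER chaperone BiP, was chosen after its values were seen and had 839, 2736 and 1410.5 CPM without antibody and 417, 351 and 387 CPM with control antibody (log2 fold change -2.11, SE 0.46, adjusted p = 0.0148). Its values without antibody spanned a wide range, and all of them lay above those with control antibody. Hsp90b1, an ER heat shock protein, had 364, 596 and 437 CPM without antibody and 213, 187 and 177 CPM with control antibody (log2 fold change -1.27, SE 0.27, adjusted p = 0.0144). The disulfide isomerase Pdia4 had 91.5, 139 and 102 CPM without antibody and 59, 53.4 and 50.2 CPM with control antibody (log2 fold change -1.03, SE 0.19, adjusted p = 0.00773). Selenos, which takes part in removing misfolded proteins from the ER, changed by -0.84 (SE 0.16, adjusted p = 0.00877). Leaving out 1 library gave 1 to 19 members called lower, with 1 without control antibody replicate 2 and 3 each without control antibody replicate 3 or no antibody replicate 2. Against no antibody replicate 1 alone the median was -0.57 and 0 were called.

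The ER stress response element joins CCAAT and CCACG with 9 bases between them, and transcription factors of the unfolded protein response bind it. It was found in 8 of the 20 listed genes with an entry and in 0.166% of all tested genes with one, on either strand of the same window. Of these 8 genes 5 were called lower, against 14 of 23 in the whole list. The stretches below show it in 4 of the called genes, with both parts of the element in capitals, at chr2:34771970-34772089 (Hspa5, plus strand), chr10:86705557-86705676 (Hsp90b1, minus strand), chr12:17266469-17266588 (Pdia6, plus strand) and chr14:118937807-118937926 (Dnajc3, plus strand). Pdia6, a disulfide isomerase, changed by -1.45, and the co-chaperone Dnajc3 by -0.47.
Hspa5: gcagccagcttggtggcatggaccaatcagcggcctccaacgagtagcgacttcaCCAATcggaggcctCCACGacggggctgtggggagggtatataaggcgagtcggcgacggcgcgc
Hsp90b1: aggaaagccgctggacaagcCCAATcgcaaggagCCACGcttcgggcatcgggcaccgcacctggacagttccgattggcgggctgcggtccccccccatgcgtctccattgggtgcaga
Pdia6: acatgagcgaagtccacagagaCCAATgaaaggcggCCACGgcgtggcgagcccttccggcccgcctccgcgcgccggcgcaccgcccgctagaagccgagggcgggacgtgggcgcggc
Dnajc3: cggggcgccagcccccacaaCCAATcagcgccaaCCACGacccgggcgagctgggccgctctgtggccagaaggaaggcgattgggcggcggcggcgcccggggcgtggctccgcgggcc

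Genes of the integrated stress response and amino acid supply, taken as a single list, fell in part. Of 28 members tested (29 listed), 7 were called lower and none higher. The large neutral amino acid transporter Slc7a5 had 116, 69.7 and 96.4 CPM without antibody and 44.7, 35.8 and 37.2 CPM with control antibody (log2 fold change -1.26, SE 0.18, adjusted p = 0.00259) and was called without any one library. Mitochondrial folate enzymes were among them, and Aldh1l2 had 6.61, 3.81 and 5.62 CPM without antibody and 0.910, 0.453 and 0.915 CPM with control antibody (log2 fold change -2.83, SE 0.50, adjusted p = 0.00603). Mthfd2 had 157, 201 and 182 CPM without antibody and 118, 95.7 and 105 CPM with control antibody (log2 fold change -0.76, SE 0.15, adjusted p = 0.00918). In both genes every library with control antibody was below every library without. Phgdh, which opens serine synthesis, changed by -1.07 (SE 0.21, adjusted p = 0.0109). With 1 library left out 1 to 9 members passed, with the fewest without control antibody replicate 2.

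Lysosomal proteases and lysozyme rose, while most other lysosomal genes did not pass the test. Of 36 lysosomal genes, all tested, 5 were called higher and none lower, and all 5 were cathepsins, the proteases of the lysosome. The list's median of 0.04 was close to that of all genes. Ctss, which also trims the invariant chain of MHC class II, had 1294, 1546 and 1215 CPM without antibody and 3099.6, 3168 and 2605 CPM with control antibody (log2 fold change 1.13, SE 0.17, adjusted p = 0.00297). The collagen-degrading protease Ctsk had 4.85, 4.99 and 4.96 CPM without antibody and 22.1, 21.7 and 21.1 CPM with control antibody (log2 fold change 2.13, SE 0.36, adjusted p = 0.00543). Both were called without any one library, and the libraries within an arm differed little compared with the gap between the arms. Ctsl had 882, 1129.9 and 907 CPM without antibody and 1954, 2113 and 2052 CPM with control antibody (log2 fold change 1.07, SE 0.20, adjusted p = 0.00813). Ctsh had 133, 146 and 111 CPM without antibody and 246, 230.3 and 221 CPM with control antibody (log2 fold change 0.84, SE 0.17, adjusted p = 0.00983). The aspartic protease Ctsd rose by 0.71 (SE 0.21, adjusted p = 0.0447) and was called in 1 of the 6 fits with a library left out. Lyz2, the lysozyme of macrophages, was not chosen by the rule and had 11375, 5282 and 6475 CPM without antibody and 22954, 23028 and 23380.0 CPM with control antibody (log2 fold change 1.58, SE 0.28, adjusted p = 0.00603), with all 3 libraries above the highest without antibody and a call without any one library. Scarb2, the lysosomal membrane protein that carries glucocerebrosidase to the lysosome, had 145, 175 and 143 CPM without antibody and 253, 259.6 and 253 CPM with control antibody (log2 fold change 0.72, SE 0.10, adjusted p = 0.00252), the smallest adjusted p among higher protein-coding genes, and was called without any one library. With 1 library left out, 2 to 5 cathepsins were called, with 2 without control antibody replicate 2.

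**Figure D3:**
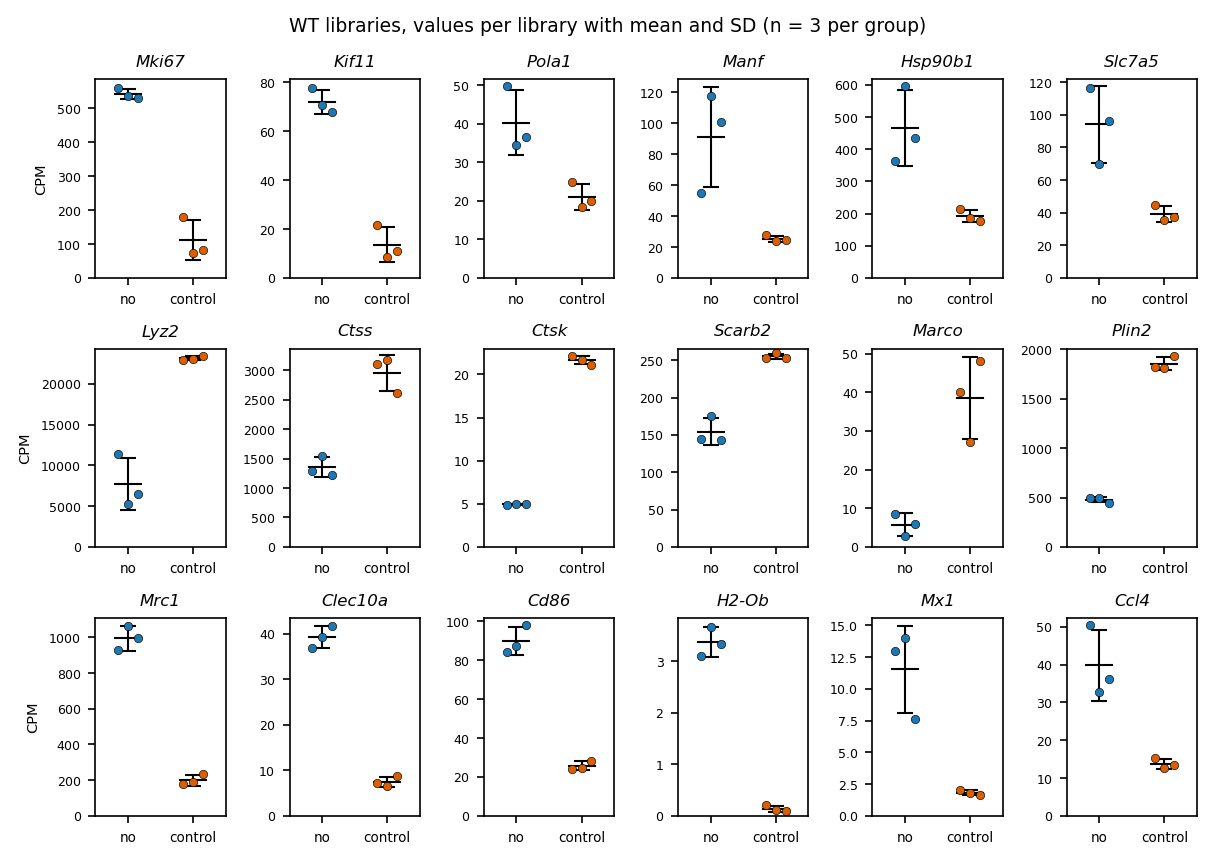
CPM of 18 genes in the 6 WT libraries (points, replicates 1 to 3 from left to right) with mean and SD, for no antibody (blue) and control antibody (orange). Each axis starts at 0, and in every panel the arms do not overlap.

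Surface receptors of phagocytes moved in both directions. Of 19 scavenger and phagocytic receptors tested (21 listed), 5 were called higher and 3 lower. Marco, a receptor for bacteria and particles, had 8.62, 2.73 and 6.03 CPM without antibody and 40.1, 27.1 and 48 CPM with control antibody (log2 fold change 2.73, SE 0.60, adjusted p = 0.0156). Cd36, which takes up oxidised lipoprotein and fatty acids, had 1239.8, 953 and 1025 CPM without antibody and 1759.5, 2109 and 2098 CPM with control antibody (log2 fold change 0.89, SE 0.20, adjusted p = 0.0177). The C-type lectin Clec4d had 329, 257 and 252 CPM without antibody and 604, 615 and 586 CPM with control antibody (log2 fold change 1.11, SE 0.22, adjusted p = 0.011). These 3 were higher in every library with control antibody. Clec4e, which pairs with Clec4d, moved the other way, with 83.8, 117 and 76.4 CPM without antibody and 44.2, 43.5 and 49.2 CPM with control antibody (log2 fold change -1.02, SE 0.20, adjusted p = 0.00918). The mannose receptor Mrc1 had 927, 1066 and 994 CPM without antibody and 177, 189 and 236 CPM with control antibody (log2 fold change -2.31, SE 0.34, adjusted p = 0.00272), and was called without any one library. Leaving out 1 library gave 1 to 8 members called higher and 1 to 4 lower. The count was 1 higher without no antibody replicate 3, and 1 higher and 1 lower without control antibody replicate 2.

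Genes that mark alternatively activated macrophages were split. Of 10 tested (15 listed), 6 had a negative and 4 a positive log2 fold change, and 4 were called lower and 1 higher. The control antibody lay below without overlap for 5 and above for 3, against 20.6% and 21.6% of all genes tested. Besides Mrc1, the lower genes were the galactose lectins Clec10a and Mgl2 and the transglutaminase Tgm2. Clec10a had 36.9, 39.2 and 41.8 CPM without antibody and 7.14, 6.63 and 8.79 CPM with control antibody (log2 fold change -2.39, SE 0.24, adjusted p = 0.00039). Together with Acap1 it had the smallest adjusted p of all lower genes that encode a protein. Tgm2 had 573, 537 and 575 CPM without antibody and 238, 215 and 245 CPM with control antibody (log2 fold change -1.27, SE 0.18, adjusted p = 0.00259). Both were called without any one library, and within an arm the replicates were close. Mgl2, expressed at a low level, had 2.53, 1.27 and 1.87 CPM without antibody and 0.280, 0.227 and 0.549 CPM with control antibody (log2 fold change -2.46, SE 0.49, adjusted p = 0.0105). The arginase Arg1, of the same list, rose from a low level, with 3.92, 2.12 and 1.82 CPM without antibody and 7.84, 8.61 and 10.4 CPM with control antibody (log2 fold change 1.77, SE 0.45, adjusted p = 0.0272). With 1 library left out, 3 or 4 of the lower genes passed, whereas Arg1 passed only without no antibody replicate 1.

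Genes of MHC class II presentation were split. The list, which also holds the costimulatory gene Cd86 and the protease gene Ctss, had 14 members. Of 13 tested, 7 had a negative and 6 a positive log2 fold change. Called lower were 4, Cd86 and H2-Ob among them, and 1, Ctss, was called higher. Of 17 class I presentation genes 1 was called lower, Tap2. Dendritic cell markers lay lower as well. Of 12 listed, 7 were tested, and all 7 had a negative value at a median of -1.24. Below without overlap were 5, against 20.6% of all genes tested, and 1, Irf4, was called. Without TMM scaling, their summed level was 119.5 to 131 CPM without antibody and 70.7 to 80.7 CPM with it. Of the 12 markers, 7 were under 1 CPM in all 6 libraries and Ly6d was at 0. The part of these markers in the result was not tested. Cd86, a costimulatory ligand for T cells, had 84.3, 87.5 and 98.1 CPM without antibody and 23.9, 24.7 and 28.3 CPM with control antibody (log2 fold change -1.81, SE 0.25, adjusted p = 0.00259). H2-Ob, a subunit of the H2-O complex that restrains peptide loading, had 3.10, 3.67 and 3.34 CPM without antibody and 0.210, 0.113 and 0.0915 CPM with control antibody (log2 fold change -4.52, SE 0.65, adjusted p = 0.00259). Both were called without any one library, and H2-Ob was under 1 CPM in each library with control antibody. H2-DMa, of the peptide-loading complex, changed by -0.91 (SE 0.25, adjusted p = 0.0344). Of 17 class I genes 16 had a negative log2 fold change and 1 was called, the peptide transporter subunit Tap2, with 49.9, 105 and 71.1 CPM without antibody and 34.1, 31.5 and 29.2 CPM with control antibody (log2 fold change -1.25, SE 0.32, adjusted p = 0.0264). With the replicate number as a block 7 of the 17 were called lower, and with 1 library left out 0 to 3, the most without no antibody replicate 1. Tap1, its partner, had 52.1, 101 and 75.7 CPM without antibody and 21.9, 22.5 and 21 CPM with control antibody (log2 fold change -1.81, SE 0.56, adjusted p = 0.0541), and passed with the replicate number as a block (adjusted p = 0.0198).

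Interferon-stimulated genes were lower in part. Of 49 type I interferon response genes tested (50 listed), 10 were called lower and none higher, 42 had a negative value, and the median was -0.99. With the replicate number as a block, 19 were called lower. Mx1, an antiviral GTPase, had 13, 14 and 7.65 CPM without antibody and 2.03, 1.81 and 1.65 CPM with control antibody (log2 fold change -2.65, SE 0.42, adjusted p = 0.00386) and was called without any one library. Rsad2, the antiviral enzyme viperin, had 26.1, 26.9 and 14.5 CPM without antibody and 5.32, 5.95 and 8.79 CPM with control antibody (log2 fold change -1.76, SE 0.35, adjusted p = 0.0105). Ifit2, which binds viral RNA, had 17.4, 18.8 and 7.34 CPM without antibody and 3.43, 2.55 and 2.56 CPM with control antibody (log2 fold change -2.35, SE 0.50, adjusted p = 0.0142). In each, all libraries with control antibody lay below the lowest without. Oasl1 had 2.48, 1.55 and 1.16 CPM without antibody and 0.210, 0.340 and 0.458 CPM with control antibody (log2 fold change -2.37, SE 0.50, adjusted p = 0.0134). The range over the 49 members was -3.17 to 0.72. Transcription factors of the pathway had values near 0. Stat2 and Irf9 had log2 fold changes of 0.03 and 0.02, and neither was called. Transcripts of the receptor Ifnar1 stood at 242, 242 and 239 CPM without antibody and 241, 240.2 and 241 CPM with control antibody and were not called (adjusted p = 0.992). With 1 library left out, 1 to 8 members were called lower, with 1 without control antibody replicate 2.

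The interferon-stimulated response element has the core GAAANNGAAA. This core was found on either strand of the 250 bases upstream of 17 of 36 listed genes with an entry and of 3.32% of all tested genes with one. Of these 17 genes 3 were called lower, against 10 of 49 in the whole list. It is shown in capitals for Rsad2, a called gene, at chr12:26456473-26456592 (minus strand), where it reads on the opposite strand, and for Isg15, which encodes a ubiquitin-like protein, at chr4:156200819-156200938 (minus strand), where 3 matches overlap. Isg15 had 5.42, 3.01 and 3.04 CPM without antibody and 1.33, 1.19 and 2.20 CPM with control antibody (log2 fold change -1.30, SE 0.44, adjusted p = 0.0713) and was not called.
Rsad2: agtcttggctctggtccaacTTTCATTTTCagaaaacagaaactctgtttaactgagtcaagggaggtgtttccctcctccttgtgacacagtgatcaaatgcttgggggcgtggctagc
Isg15: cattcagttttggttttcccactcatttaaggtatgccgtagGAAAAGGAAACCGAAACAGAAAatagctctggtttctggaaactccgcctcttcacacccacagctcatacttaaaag

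Chemokines and immediate early genes were lower in part. Of 28 cytokines and chemokines tested (35 listed), 5 were called lower and 1 higher. Ccl4 had 50.6, 32.8 and 36.1 CPM without antibody and 15.2, 12.6 and 13.4 CPM with control antibody (log2 fold change -1.54, SE 0.23, adjusted p = 0.00271), and Ccl3 had 83.5, 139 and 99.9 CPM without antibody and 21.6, 22.8 and 23.2 CPM with control antibody (log2 fold change -2.26, SE 0.46, adjusted p = 0.0116). Both encode chemokines that attract leukocytes, and in neither gene did the arms overlap. Il10, an anti-inflammatory cytokine, had 8.16, 3.72 and 4.46 CPM without antibody and 2.17, 2.15 and 1.74 CPM with control antibody (log2 fold change -1.42, SE 0.34, adjusted p = 0.0212). The acute phase gene Saa3 was the exception and rose from under 1 CPM, with 0.981, 0.188 and 0.810 CPM without antibody and 9.24, 10 and 11.4 CPM with control antibody (log2 fold change 3.95, SE 0.63, adjusted p = 0.00403). Ccl4 and Saa3 were called without any one library. Of 24 immediate early genes, all tested, 6 were called lower and 23 had a negative value. Egr3 had 28.9, 12.3 and 21.9 CPM without antibody and 3.57, 2.49 and 2.75 CPM with control antibody (log2 fold change -2.84, SE 0.53, adjusted p = 0.00766). Egr1, a transcription factor induced within minutes of growth factor signalling, had 293, 429.8 and 329 CPM without antibody and 50.5, 84.4 and 44.6 CPM with control antibody (log2 fold change -2.55, SE 0.68, adjusted p = 0.033). The stress-induced factor Atf3 changed by -0.90 (SE 0.21, adjusted p = 0.0205). Of these genes, 0 were called without control antibody replicate 2, 8 without no antibody replicate 1, and 1 or 2 without another library.

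Of Toll-like receptor and adaptor genes 9.52% were called and of NF-κB genes 12.5%, against 8.9% of all genes tested. Of 21 Toll-like receptor and adaptor genes, all tested, 2 were called lower and none higher. They were Tlr9, the receptor of unmethylated DNA, with 38.5, 23.2 and 20.8 CPM without antibody and 19.4, 14.7 and 11.7 CPM with control antibody (log2 fold change -0.85, SE 0.23, adjusted p = 0.0325), and the adaptor Ticam1, with 28.4, 31.7 and 32.2 CPM without antibody and 16.9, 14.6 and 13.9 CPM with control antibody (log2 fold change -1.02, SE 0.28, adjusted p = 0.0344). Of 16 NF-κB factors and inhibitors, all tested, 2 were called lower, Traf1 (log2 fold change -1.42, SE 0.36, adjusted p = 0.0269) and Tnfaip3 (log2 fold change -0.62, SE 0.18, adjusted p = 0.0487). Tnfaip3, an inhibitor of the pathway, lost its call with the replicate number as a block (adjusted p = 0.0651). The heat shock response (16 tested), complement (15) and serum response (18) lists held 0 called genes by edgeR with all 18 libraries, with 0, 4 and 2 at an unadjusted p under 0.05. DESeq2 called 0, 2 and 1 of them. Without no antibody replicate 1 edgeR called 3 complement and 2 serum response genes higher, and 2 complement genes with the replicate number as a block. Without no antibody replicate 2, 1 complement gene was called lower.

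Among genes that handle IgG itself 6.25% were called, against 8.9% of all genes tested. Of 16 Fc gamma receptor genes and signalling partners, all tested, 1 was called higher and none lower, and the median was 0.33. With 1 library left out 0 to 5 were called higher, with 5 and a median of 0.55 without no antibody replicate 1. Against that library alone the median was -0.09, and with the replicate number as a block 1 gene was called higher and 1 lower. The called gene was Fcgr3, an activating low-affinity receptor, with 188, 90.2 and 110.0 CPM without antibody and 270.3, 289 and 281 CPM with control antibody (log2 fold change 1.11, SE 0.24, adjusted p = 0.0151). Without antibody, replicate 1 was well above the other two, and its gap to the control arm was the smallest. The high-affinity receptor Fcgr1 had 43.2, 7.63 and 10.6 CPM without antibody and 36, 31.8 and 27.7 CPM with control antibody (log2 fold change 0.64, SE 0.58, adjusted p = 0.47). Its arms overlapped, because replicate 1 without antibody was far above the other two. Fcgr4, a further activating receptor, had 33.5, 13.4 and 16.9 CPM without antibody and 33.8, 29 and 31.7 CPM with control antibody (log2 fold change 0.57, SE 0.32, adjusted p = 0.242), with the same pattern. The inhibitory receptor Fcgr2b had 111, 64.2 and 94.2 CPM without antibody and 73.2, 75.4 and 81 CPM with control antibody (log2 fold change -0.23, SE 0.17, adjusted p = 0.378). The common gamma chain Fcer1g had 381, 476 and 371 CPM without antibody and 291, 281 and 278 CPM with control antibody (log2 fold change -0.53, SE 0.20, adjusted p = 0.102), Syk had 403, 509.8 and 467 CPM without antibody and 555, 592 and 631 CPM with control antibody (log2 fold change 0.36, SE 0.11, adjusted p = 0.0578), and the recycling receptor Fcgrt had 34.4, 31.7 and 32.5 CPM without antibody and 25.2, 19.5 and 23.9 CPM with control antibody (log2 fold change -0.52, SE 0.16, adjusted p = 0.0551). For these last 3 genes both arms were apart although the test was not passed, and Fcgrt passed with the replicate number as a block (adjusted p = 0.0471). The other 9 signalling genes ranged from -0.12 to 0.71.

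Several genes of lipid storage and its regulation were higher. Of 20 genes of lipid efflux and storage tested (21 listed), 5 were called higher and none lower. Plin2, the coat protein of lipid droplets, had 497, 491 and 447 CPM without antibody and 1824, 1812 and 1936 CPM with control antibody (log2 fold change 1.96, SE 0.47, adjusted p = 0.021). The oxysterol receptor Nr1h3, LXRα, had 5.32, 2.68 and 3.24 CPM without antibody and 13.9, 13.3 and 15.1 CPM with control antibody (log2 fold change 1.91, SE 0.48, adjusted p = 0.0263). The phospholipid-remodelling enzyme Lpcat3 had 24.6, 12.4 and 15.3 CPM without antibody and 30.3, 30.4 and 29.6 CPM with control antibody (log2 fold change 0.79, SE 0.20, adjusted p = 0.0254). In each gene all libraries with control antibody were higher, by far more than their own spread for Plin2. The fatty acid-binding protein gene Fabp7 had 2.84, 2.17 and 2.03 CPM without antibody and 14.8, 14.7 and 12 CPM with control antibody (log2 fold change 2.56, SE 0.36, adjusted p = 0.00259) and was called without any one library. Of 19 fatty acid synthesis genes tested (20 listed), 4 were called higher, among them Acly, which makes cytosolic acetyl-CoA (log2 fold change 0.60, SE 0.12, adjusted p = 0.0122), and 1 lower, the elongase Elovl7, with 8.57, 9.37 and 8.61 CPM without antibody and 1.61, 1.30 and 1.56 CPM with control antibody (log2 fold change -2.57, SE 0.45, adjusted p = 0.00603). Of 25 sterol synthesis genes, all tested, 1 was called, Sqle, with 30.6, 15 and 16.1 CPM without antibody and 41.7, 37.7 and 42 CPM with control antibody (log2 fold change 0.98, SE 0.22, adjusted p = 0.0165). Without no antibody replicate 2 or 3 or control antibody replicate 2 or 3, 0 of the efflux and storage genes were called.

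Genes of the p53 response were lower where the arm without antibody was uneven. Of 25 p53 targets tested (26 listed), 7 were called lower and none higher, with a median of -1.05. Plk2, a kinase of the stress response, had 482, 958 and 646 CPM without antibody and 184, 184 and 196 CPM with control antibody (log2 fold change -1.89, SE 0.43, adjusted p = 0.017). Zmat3 had 271, 607 and 465 CPM without antibody and 134, 149 and 144 CPM with control antibody (log2 fold change -1.65, SE 0.34, adjusted p = 0.0124). Pmaip1, which encodes the pro-apoptotic Noxa, had 47, 152 and 85.2 CPM without antibody and 12, 8.89 and 8.60 CPM with control antibody (log2 fold change -3.26, SE 0.70, adjusted p = 0.0145). Replicate 2 without antibody was the highest and replicate 1 the lowest of its arm in all 3 genes. The death receptor Tnfrsf10b showed this order as well (log2 fold change -1.43, SE 0.27, adjusted p = 0.00875). Without no antibody replicate 2, 1 member was called and the median was -0.61. Without control antibody replicate 2, 0 were called, and without control antibody replicate 3, 1, at medians of -1.09 and -0.94. Against replicate 1 alone it was -0.35, so the size of this difference rests on replicates 2 and 3 without antibody.

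Regulators of cell survival and genes of the monocyte stage moved both ways. Of 28 apoptosis regulators tested (30 listed), 2 were called higher and 4 lower. The survival protein gene Mcl1 had 575, 574 and 549 CPM without antibody and 724, 756 and 814 CPM with control antibody (log2 fold change 0.43, SE 0.11, adjusted p = 0.0303). Bik, which promotes cell death, had 1.81, 0.941 and 2.18 CPM without antibody and 0.420, 0.113 and 0.366 CPM with control antibody (log2 fold change -2.48, SE 0.54, adjusted p = 0.0152). The death receptor Fas changed by -1.37 (SE 0.34, adjusted p = 0.0249). The arms were apart for all 3. Of 18 monocyte-stage genes tested (20 listed), 2 were called higher, 4 with the replicate number as a block, and 1 lower. Ly6c2, the surface marker of classical monocytes, had 0.103, 0 and 0.0506 CPM without antibody and 0.560, 0.510 and 0.458 CPM with control antibody (log2 fold change 3.18, SE 0.85, adjusted p = 0.0332), and Mgst1, a glutathione transferase, had 68.7, 70.6 and 71.4 CPM without antibody and 96.7, 95.4 and 112 CPM with control antibody (log2 fold change 0.53, SE 0.15, adjusted p = 0.0376). Ifitm6 had 15.8, 5.93 and 8.56 CPM without antibody and 4.48, 3.45 and 3.11 CPM with control antibody (log2 fold change -1.45, SE 0.43, adjusted p = 0.0469). Ly6c2 stayed under 1 CPM in every library. Both genes that rose were higher in every library with control antibody, while Ifitm6 was lower in every one.

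Lists of NRF2 response, metallothionein and zinc transport, glucocorticoid-induced and interferon-gamma inducible genes held 1 or 2 calls each. Their shares were 5.26 to 40.0%, against 8.9% of all genes tested. Of 22 NRF2 response genes, all tested, none was called higher, 2 with the replicate number as a block, and 2 were called lower, Osgin1 (log2 fold change -1.05, SE 0.30, adjusted p = 0.0425) and Nfe2l2 itself, the factor NRF2, with 327, 421 and 384 CPM without antibody and 216, 204 and 223 CPM with control antibody (log2 fold change -0.81, SE 0.21, adjusted p = 0.0263). Of 5 metallothionein and zinc transport genes tested (6 listed), 2 were called lower. The metal-binding Mt1 had 80.5, 185 and 124 CPM without antibody and 74.8, 68.8 and 66.2 CPM with control antibody (log2 fold change -0.89, SE 0.25, adjusted p = 0.0406). The zinc importer Slc39a10 changed by -0.77 (SE 0.22, adjusted p = 0.0433). Of 10 glucocorticoid-induced genes, all tested and all negative, 1 was called, Ddit4, an inhibitor of mTOR signalling, with 62.4, 210.5 and 116 CPM without antibody and 63.1, 53.2 and 58.9 CPM with control antibody (log2 fold change -1.15, SE 0.33, adjusted p = 0.042), which lost its call with the replicate number as a block (adjusted p = 0.0723). Of 19 interferon-gamma inducible genes tested (20 listed), 1 was called lower, the cytokine signalling inhibitor Socs1 (log2 fold change -2.18, SE 0.63, adjusted p = 0.0425), and 4 with the replicate number as a block. For Mt1 and Ddit4 replicate 2 without antibody was the highest library, and for Ddit4 the arms overlapped.

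Regulators of the macrophage lineage moved both ways. Of 21 growth factor receptor and lineage genes tested (22 listed), 4 were called higher and 2 lower. Cebpa, a transcription factor of myeloid cells, had 224, 289 and 292 CPM without antibody and 441, 451 and 427 CPM with control antibody (log2 fold change 0.71, SE 0.15, adjusted p = 0.0144). Csf2rb2, a beta chain of the interleukin-3 receptor, had 75.1, 75 and 80.8 CPM without antibody and 166, 151 and 159.7 CPM with control antibody (log2 fold change 1.04, SE 0.26, adjusted p = 0.0258). The transcription factor gene Irf4 had 3.98, 3.67 and 5.97 CPM without antibody and 0.700, 0.850 and 1.19 CPM with control antibody (log2 fold change -2.32, SE 0.58, adjusted p = 0.0258). Reads of Csf2rb2 can be shared with its close copy Csf2rb. Among proteases of the matrix 2 of 15 tested (16 listed) were called higher, Mmp14, a membrane-bound collagenase, with 14.4, 8.19 and 12 CPM without antibody and 61.5, 68 and 51.7 CPM with control antibody (log2 fold change 2.39, SE 0.46, adjusted p = 0.00949), and Mmp9 (log2 fold change 1.48, SE 0.43, adjusted p = 0.044), which was called in 0 of the 6 fits with a library left out. With the replicate number as a block 4 were called higher. The median of this list was 0.47, and 0.07 against no antibody replicate 1 alone. Stromal and fibroblast markers had a median of 1.14, with 12 of 13 tested positive, 0 called by edgeR or DESeq2 and 0 at an unadjusted p under 0.05. Their median was -0.37 without control antibody replicate 3, and their part in the result was not tested. Of 22 integrin and adhesion genes, all tested, 3 were called higher and 3 lower, and with the replicate number as a block 6 were called higher. The tetraspanin Cd81 had 377, 386 and 354 CPM without antibody and 188, 174 and 189 CPM with control antibody (log2 fold change -1.02, SE 0.17, adjusted p = 0.00561) and was called without any one library. Integrin genes split, with Itgb5 higher (log2 fold change 0.58, SE 0.13, adjusted p = 0.0149) and Itga6 lower (log2 fold change -0.85, SE 0.19, adjusted p = 0.0168). In all of these genes the arms did not overlap.

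Of glycolysis and hypoxia genes 15.6% were called, of clock genes 11.1% and of nuclear-encoded respiratory chain genes 2.38%, against 8.9% of all genes tested. Of 32 glycolysis and hypoxia genes, all tested, 1 was called higher and 4 lower. Bnip3l, a receptor for mitophagy, had 51.4, 54.3 and 48.7 CPM without antibody and 83.2, 87.8 and 89.4 CPM with control antibody (log2 fold change 0.75, SE 0.13, adjusted p = 0.00561). Vegfa, the endothelial growth factor, had 639, 1537 and 1106 CPM without antibody and 385, 457 and 475 CPM with control antibody (log2 fold change -1.32, SE 0.27, adjusted p = 0.0129). Hmox1, which degrades haem, had 917, 572 and 694 CPM without antibody and 2579, 1894 and 2071 CPM with control antibody (log2 fold change 1.58, SE 0.57, adjusted p = 0.0886), and passed with the replicate number as a block (adjusted p = 0.0469). Of 42 respiratory chain genes encoded in the nucleus, 1 was called lower, while 4 of 9 tested mitochondrially encoded genes (15 listed) were called lower, with a median of -1.21. Of 18 clock genes tested (19 listed), 2 were called lower, the core factor Arntl, with 27.2, 30.7 and 27.3 CPM without antibody and 17.6, 16.8 and 19.4 CPM with control antibody (log2 fold change -0.66, SE 0.11, adjusted p = 0.00496), and the related factor Npas2 (log2 fold change -2.05, SE 0.54, adjusted p = 0.031). All 43 ribosomal protein genes had a negative value, and 1 was called, at a median of -0.48 that was -0.14 against no antibody replicate 1 alone.

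Among protein-coding genes of mean log2 CPM 3 or higher, the largest decreases outside the lists came from genes of varied roles. Cmah, which makes the sialic acid N-glycolylneuraminic acid, had 21.4, 14.9 and 17.3 CPM without antibody and 0.560, 0.283 and 0.183 CPM with control antibody (log2 fold change -5.65, SE 0.85, adjusted p = 0.00297). The chondroitin sulfotransferase gene Chst11 had 43, 54.2 and 53.8 CPM without antibody and 6.16, 3.74 and 7.32 CPM with control antibody (log2 fold change -3.15, SE 0.45, adjusted p = 0.00259). The Notch ligand Jag2 had 19.1, 19 and 19.3 CPM without antibody and 2.73, 2.27 and 1.92 CPM with control antibody (log2 fold change -3.04, SE 0.48, adjusted p = 0.00377). For these 3 genes the libraries of each arm were close and the calls held without any one library. Mex3b, which encodes an RNA-binding protein (log2 fold change -3.10, SE 0.45, adjusted p = 0.00259), and Prrg4 (log2 fold change -2.98, SE 0.43, adjusted p = 0.00259) were also called without any one library. Of the genes this abundant, Rasd2 had the largest decrease, with 1.96, 90.1 and 30.7 CPM without antibody and 0.770, 0.623 and 0.915 CPM with control antibody (log2 fold change -5.75, SE 1.58, adjusted p = 0.0366). Its values without antibody ran from near those with control antibody to far above them, so this fold rests on replicates 2 and 3. Tox2, a high mobility group factor, changed by -4.61 (SE 0.81, adjusted p = 0.00603). Acap1, an activator of Arf6 GTP hydrolysis, had 17.5, 16 and 16.7 CPM without antibody and 4.83, 2.89 and 3.57 CPM with control antibody (log2 fold change -2.15, SE 0.22, adjusted p = 0.00039), and Srgn, which encodes the granule proteoglycan serglycin, had 165, 133 and 143 CPM without antibody and 68, 55.4 and 62.1 CPM with control antibody (log2 fold change -1.25, SE 0.14, adjusted p = 0.000671). Both were called without any one library. On the higher side, the tetraspanin partner Ptgfrn had 18.5, 13.5 and 13.5 CPM without antibody and 72.5, 74.1 and 55.8 CPM with control antibody (log2 fold change 2.15, SE 0.36, adjusted p = 0.00496), and the vitamin transporter Slc5a6 had 5.42, 5.13 and 4.41 CPM without antibody and 10.7, 12.5 and 9.70 CPM with control antibody (log2 fold change 1.14, SE 0.16, adjusted p = 0.00259), each called without any one library. Cav1, the main protein of caveolae, had 17.6, 20.2 and 16.7 CPM without antibody and 91.6, 77.3 and 95.1 CPM with control antibody (log2 fold change 2.27, SE 0.54, adjusted p = 0.0208), and Id1, an inhibitor of helix-loop-helix factors, had 27.9, 8.38 and 10.5 CPM without antibody and 82.2, 73.6 and 52.5 CPM with control antibody (log2 fold change 2.15, SE 0.63, adjusted p = 0.046).

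The same antibody arms exist in cKO BMDMs, which carry the same floxed alleles with LysM cre/cre. The cre sits in the lysozyme locus and is meant to delete both H3.3 genes in myeloid cells. The paper reports that the loss of H3f3b varied among cKO samples and was in some only partial. The 6 cKO libraries share none with the WT comparison. In cKO cells 0.663% of genes were called higher and 0.797% lower. Of the genes called lower in WT, 91.2% had a negative value in cKO, against 49.1% of all genes. Of those called higher, 93.6% were positive, against 50.9%. The median log2 fold changes in cKO were -0.51 and 0.26, smaller than in WT, where the genes had been selected for their change. Mitotic genes had a median of -1.91 in cKO and 15 of 40 were called lower there. Mki67 had 422, 403 and 267 CPM without antibody and 99.2, 49 and 58.8 CPM with control antibody (log2 fold change -2.39, SE 0.44, adjusted p = 0.0241). Ctss had 1458, 1403 and 1502 CPM without antibody and 2144, 2731 and 2540.4 CPM with control antibody (log2 fold change 0.76, SE 0.17, adjusted p = 0.0369). Mx1 had 63.5, 49 and 19.2 CPM without antibody and 13.8, 13.6 and 11.2 CPM with control antibody (log2 fold change -1.77, SE 0.38, adjusted p = 0.0334). In these 3 genes the cKO arms were apart in the direction seen in WT. Saa3, at a log2 fold change of 3.77, and Slc7a5, at -1.15, were called in cKO as well. Replication-coupled histone genes had a median of -1.58 in cKO with 14 called lower, and -0.49 with 2 called in WT. The WT value rested on 1 library: it was 0.14 without no antibody replicate 1 and -1.10 against that library alone. Matrix metalloproteinase genes had a median of 1.58 in cKO. Stromal and fibroblast markers had one of 2.33 there, with 13 of 13 tested above without overlap, and their part in the result was not tested. The difference between genotypes was tested gene by gene only. For ER chaperones the cKO median was -0.15 with 0 called, and for p53 targets -0.05 with 0 called. Both arms did not overlap in cKO for 15.5% of genes upwards and 15.4% downwards.

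Whether the shift differed between genotypes was tested as an interaction. By edgeR 0 of 17191 genes (0.0%) were called, with a smallest adjusted p of 0.456, and 1263 had an unadjusted p under 0.05. DESeq2 called 29 positive and 2 negative differences. Among the 5 genes with the smallest adjusted p were Zfp532, Clec10a, Cd24a and Camk2a. Clec10a changed by -2.39 in WT and -0.58 in cKO. The zinc finger gene Zfp532 changed by -1.52 and 1.08. Cd24a, a surface glycoprotein of immature cells, changed by 0.58 and 2.02. Camk2a, a calmodulin-dependent kinase, changed by -1.05 and 1.08, and lost its call in WT with the replicate number as a block (adjusted p = 0.0617), while Cd24a gained one (adjusted p = 0.0462).

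**Figure D4:**
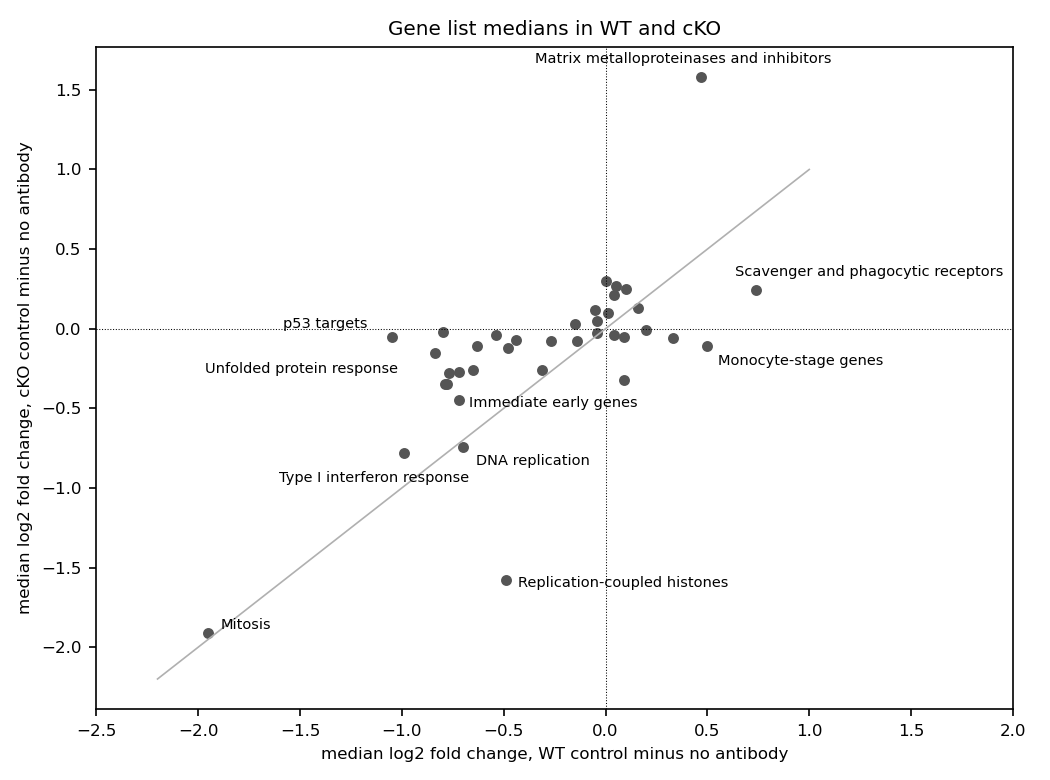
Median log2 fold change (control antibody minus no antibody) of each of the 38 gene lists in WT (horizontal axis) and cKO (vertical axis), with the line of equal values in grey. Mitosis lies near the line at -1.95 and -1.91, while p53 targets and the unfolded protein response lie near 0 in cKO.

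WT cells given the antibody to IFNAR1, a mouse monoclonal antibody that blocks the type I interferon receptor, formed another arm. Its contrast with no antibody shares the libraries without antibody, so both contrasts are set side by side and not compared by a test. Against no antibody the IFNAR1 antibody gave 0 called genes by edgeR (0.0%), with 878 at an unadjusted p under 0.05. Against the control antibody 6.83% of genes were called higher and 3.06% lower. Mki67 had 1098, 1146 and 424 CPM with IFNAR1 antibody, and its log2 fold change against no antibody was 0.71, while that of the control antibody was -2.28. Mrc1 had 1178, 1941 and 513 CPM, and its values against no antibody were 0.28 and -2.31. Ctss had 1050.2, 1704 and 1555 CPM, with 0.09 and 1.13. These 3 genes stayed nearer to the arm without antibody in the mean. Mx1 had 4.04, 1.38 and 2.31 CPM with IFNAR1 antibody, and its log2 fold changes against no antibody were -2.14 and -2.65, with list medians of -1.09 and -0.99. Of the WT libraries with IFNAR1 antibody, replicates 1 and 2 lay apart from replicate 3 on the first principal component, at -72.8, -110.4 and 14.7.

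**Figure D5:**
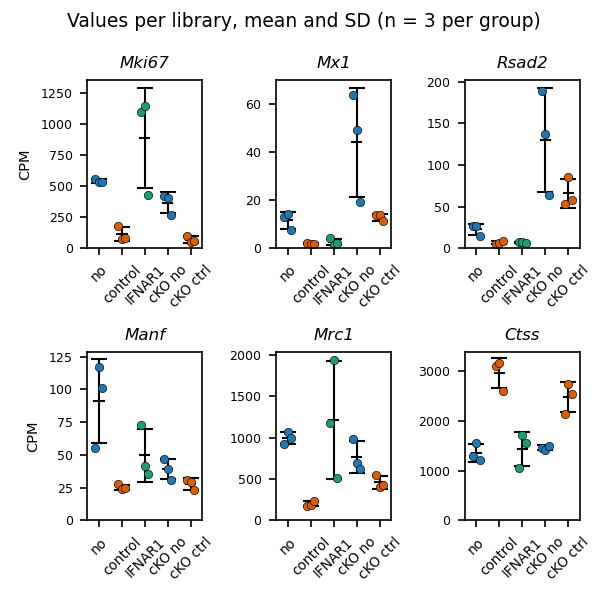
CPM of 6 genes per library (points, replicates 1 to 3 from left to right) with mean and SD in the 3 WT arms (no antibody, control antibody, IFNAR1 antibody) and in cKO cells of the first 2 arms. Each axis starts at 0, and Mki67 and Mx1 are lower with control antibody in both genotypes.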

How the data were processed

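The authors depleted ribosomal RNA, made libraries with the NEBNext Ultra II RNA kit, which does not mark strand, trimmed reads with cutadapt and aligned them with STAR to mm10. Versions are not given in the sources used here. The deposited values are raw counts per gene, unstranded, which were not normalized. Reads that fell in no gene made up 23.9 to 25.2% of all counts without antibody and 21.1 to 24.9% with control antibody. Unmapped (8.66 to 10.2%), multimapping (7.25 to 9.82%) and ambiguous (4.31 to 4.59%) reads were separate classes, and all 4 were left out. Precision rested on the spread between replicates as well as on counts on genes. These counts were 18680746 to 24552967 per library without and 10955509 to 17913002 with control antibody. p-values draw on the spread within all groups of the model described below, with the cKO and IFNAR1 antibody libraries among them. They do not measure the spread of the compared WT cultures alone. Symbols came from the GENCODE vM21 annotation (GRCm38).

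All 18 libraries of the antibody experiment entered 1 edgeR quasi-likelihood model (version 4.0.16, R 4.3.3) with a term per group, TMM scaling and the filterByExpr filter, with Benjamini-Hochberg adjustment over 17191 genes. Values are CPM on TMM-scaled library sizes, except for summed marker levels and counts of markers under 1 CPM, which were not TMM-scaled. Genes with an adjusted p under 0.05 were called. Scripts were tested on simulated data. Same-numbered replicates of both arms deviated together (r over genes 0.145 to 0.284 in 3 pairs), so the numbers were taken to pair the samples. For different numbers r was -0.179 to -0.047. Deviations from an arm's mean sum to 0, so these values are tied to those of the 3 pairs. The calls, SE and adjusted p come from the model without a block, which leaves the pairing out, unless another setting is named. The model with a replicate block was an alternative, as were DESeq2 1.42.0, RLE scaling, other filters, fewer libraries and each library left out.

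Named genes were, among protein-coding genes of mean log2 CPM 3 or higher and arms apart, the 12 with the largest change in each direction, the 4 members with the smallest p of each gene list, all Fc gamma receptor genes, the 3 protein-coding genes with the smallest adjusted p in each direction and the 5 with the smallest adjusted p for the difference between genotypes, of which a part is described and some are not reported here. Cdk1, Hspa5, Pdia6, Dnajc3, Lyz2, Ctsd, Arg1, Isg15, Ifnar1, S100a8, Col1a1, Actb, Dbp, Adgre1, Csf1r and the genes of the closing section were named after their values were seen. Members and lists were chosen with earlier results of these data known. Of 882 genes in 38 lists, 841 were tested. Promoter sequences were taken from RefSeq (GRCm38.p6).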

Additional observations from a re-analysis of the deposited data

How the results depend on the processing

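WT no antibody replicates 2 and 3 stood apart from replicate 1, and the number of calls depended on the libraries included: with 1 library left out it ranged from 38 to 1101 higher and from 68 to 1324 lower, the lowest without control antibody replicate 2 and the highest without no antibody replicate 1. DESeq2 called 1055 higher and 1489 lower, a model with only the 6 libraries 1154 and 1536, only the 9 WT libraries 44 and 172, a log2 fold change of at least 1 added to the call 200 and 642, and no antibody replicate 1 as the single reference, an alternative chosen after seeing the data, 5 and 95. Without a filter on low counts 397 higher and 1232 lower were called. With the replicate number as a block, 712 higher and 1158 lower genes were called. The block changed the call of Tap1, Fcgrt, Hmox1, Cd24a, Ddit4, Tnfaip3 and Camk2a as given beside them, and of no other gene named. The interaction between genotypes had 0 calls except with DESeq2 (29 positive, 2 negative) and with only the 12 libraries of both arms (51 and 13). Against no antibody replicate 1 alone, Fcgr1 turned to -0.46 and Fcgr4 to -0.11. The sign was the same for 562 of 562 genes called higher and for 967 of 968 called lower. That library took part in making these calls, and the arms did not overlap for 562 of the higher and 958 of the lower genes. The agreement in sign was therefore fixed in advance for nearly all of them and supports nothing. Of the 129 genes named with a test, 83 lost their call without control antibody replicate 2, 64 without replicate 3, 37 without replicate 1, and 9, 47 and 48 without no antibody replicates 1, 2 and 3. With only the 9 WT libraries 71 did, and 94 with the single reference. Depth limits genes under 1 CPM. The cause of these changes was not tested.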

Other observations

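Genes of protein entry into the ER and of vesicle coats were lower with control antibody. Both lists were added after the values had been seen, so their counts describe and support nothing. Of 34 genes of the translocon, signal peptidase and N-glycosylation, all tested, 16 were called lower and none higher, at a median log2 fold change of -0.51 in WT and -0.12 in cKO. Spcs2, a subunit of signal peptidase, had 116, 204 and 166 CPM without antibody and 79, 76.3 and 72.8 CPM with control antibody (log2 fold change -1.09, SE 0.19, adjusted p = 0.00603). Serp1, a small protein of the translocon, had 306, 442 and 356 CPM without antibody and 206, 210.2 and 209.9 CPM with control antibody (log2 fold change -0.82, SE 0.13, adjusted p = 0.0038). In both genes every library with control antibody was below every library without. Ssr1, of the translocon-associated complex, changed by -0.78 (SE 0.13, adjusted p = 0.00602), and Ostc, of the oligosaccharyltransferase, by -0.90 (SE 0.14, adjusted p = 0.00354). Of 18 COPII and COPI coat genes, all tested, 7 were called lower and none higher. Sec24d, a cargo adaptor of COPII, had 105, 146 and 155 CPM without antibody and 65.7, 63.7 and 62.4 CPM with control antibody (log2 fold change -1.08, SE 0.19, adjusted p = 0.00602). With 1 library left out, 6 to 21 translocon and 1 to 11 coat genes were called lower.

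Hal and Glul were also named after their values were seen. Hal, which removes ammonia from histidine, had 0.775, 0.0941 and 0.557 CPM without antibody and 8.75, 6.29 and 8.79 CPM with control antibody (log2 fold change 4.05, SE 0.71, adjusted p = 0.00603). Glul, the glutamine synthetase, had 164, 128 and 121 CPM without antibody and 372, 357 and 358 CPM with control antibody (log2 fold change 1.40, SE 0.25, adjusted p = 0.00603). Both were called without any one library, and the libraries with control antibody lay above all those without.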
